A study of Mus musculus with 6 samples.

Results

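Potassium channel subunits were examined as the 95 genes whose name on the array begins with Kcn, out of 35527 gene names. The arrays carry 140 probes for these genes, and each gene is represented by the probe with the highest mean signal over the 6 arrays. The set holds 30 voltage-gated pore-forming subunits, 10 silent voltage-gated subunits, 15 inward rectifiers, 14 tandem-pore subunits, 8 calcium- or sodium-activated subunits and 16 accessory subunits. It also holds Kcnrg, a regulator of channel assembly, and Kcnq1ot1, a long non-coding RNA that shares the prefix and encodes no channel. The samples were cardiomyocyte fractions of adult mice, isolated by retrograde perfusion of the heart. The knockout group (KO) comprised 3 samples from H19 KO mice, and the wild-type group (WT) comprised 3 samples from their wt littermates. All 6 samples were taken 6 weeks after transverse aortic constriction (TAC), an operation that narrows the aorta and loads the left ventricle, so no comparison with unloaded hearts is made here. The labels give neither the strain, the age nor the part of H19 that the allele lacks. Whether an array stands for 1 mouse is not stated either, so the p-values reflect only how far these samples spread, a spread that may be technical.

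Potassium channels carry the outward currents that end the cardiac action potential and hold the resting membrane potential. In mouse ventricle a fast repolarisation rests on transient outward and delayed rectifier currents of voltage-gated channels, the resting potential rests on inward rectifiers of the Kir2 subfamily, and tandem-pore channels add a leak. Lower levels of several of these channels are a known feature of hypertrophied and failing hearts, and the arrays address whether H19, an imprinted long non-coding RNA, bears on gene expression in the loaded cardiomyocyte.

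Signals are given as log2 of the background-subtracted intensity relative to the array's 75th percentile, so that 0 is that percentile and a difference of 1 is a doubling. Between 48.8% and 58.6% of the spots on an array were well above background by the scanner's own flag. H19 itself was well above background on 0 of 3 KO arrays and on 3 of 3 WT arrays, at -5.97, -6.72 and -6.28 on the KO arrays and 1.41, 0.46 and 0.53 on the WT arrays. It was at least 32.7-fold higher in WT, where the KO level is set at the lowest signal called well above background (adjusted p = 0.00236). Slide 1 held replicate 1 of both genotypes and slide 2 held replicates 2 and 3, and scans followed the slides. All 8 cardiomyocyte markers were well above background on all 6 arrays. Markers of other cells were present as well. The mean of 7 fibroblast markers, centred on each gene's mean over the 6 arrays, was -0.37, 1.20 and 0.06 on KO arrays 1 to 3 and 0.31, -0.34 and -0.84 on WT arrays 1 to 3. The mean of 4 atrial cardiomyocyte markers was -0.83, -1.97 and -1.37 on the KO arrays and 1.66, 2.06 and 0.45 on the WT arrays.

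Channel transcripts were detected unevenly over the families. Of the 95 genes, 43 were well above background on all 6 arrays, 18 on 1 to 5 arrays and 34 on none. Over all 35527 gene names, 18437 had their tested probe above background on all 6 arrays. On at least 3 arrays the counts were 52 of 95 Kcn genes and 21920 of all 35527 names. Of the 34, Kcnh8 had another probe that was above background on at least 1 array, which leaves 33 genes undetected by every probe. Inward rectifiers were detected most completely, with 10 of 15 genes on all 6 arrays, followed by voltage-gated subunits with 17 of 30. Silent voltage-gated subunits, which form channels only together with other subunits, had 2 of 10, and these were Kcng2 and Kcnv2. Tandem-pore subunits were split with no gene in between: Kcnk3, Kcnk4, Kcnk6, Kcnk13, Kcnk15 and Kcnk16 were above background on all 6 arrays and the other 8 on none. Of the calcium- or sodium-activated subunits, Kcnn2 and Kcnt2 were above background on all 6 arrays, 5 others on 1 to 5, and Kcnu1 on none.

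**Figure D1:**
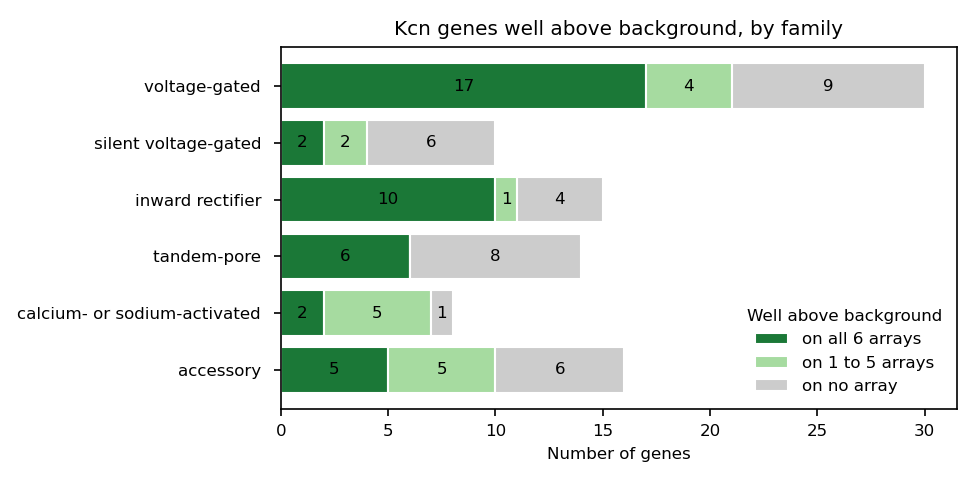
Number of Kcn genes (horizontal axis) well above background on all 6 arrays, on 1 to 5 arrays and on no array, for each family (vertical axis), by the probe with the highest mean signal. Inward rectifiers and voltage-gated subunits have the largest part detected on all 6 arrays, with 10 of 15 and 17 of 30 genes.

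Several subunits with known roles in heart or vessel wall were above background on none of the 6 arrays, or on only 1 or 2. Kcne1, the accessory subunit that slows Kcnq1 channels, was at -5.73, -5.76 and -6.05 on the KO arrays and -4.88, -5.18 and -5.43 on the WT arrays, and Kcne2, an accessory subunit of Kcnh2 and Kcnq1, was at -6.24, -6.93 and -5.93 on the KO arrays and -5.81, -6.24 and -6.73 on the WT arrays. Kcna2 (Kv1.2), Kcnk1 (TWIK-1) and Kcnk2 (TREK-1), a stretch-activated channel, were also above background on none of the 6 arrays. Kcnma1, the large-conductance calcium-activated channel, and Kcnmb1, its accessory subunit in smooth muscle, were each above background on 1 KO array and 0 WT arrays. Kcnn3 was above background on 2 KO arrays and 0 WT arrays, and Kcnab2, an accessory subunit of Kv1 channels, on 0 KO arrays and 2 WT arrays. The other members above background on no array were Kcna3, Kcna10, Kcnc4, Kcnh1, Kcnh5, Kcnh6, Kcnh8 and Kcnq3 among voltage-gated subunits and Kcng1, Kcng3, Kcng4, Kcns2, Kcns3 and Kcnv1 among silent ones. They also included the inward rectifiers Kcnj1, Kcnj6, Kcnj13 and Kcnj16, the tandem-pore genes Kcnk5, Kcnk7, Kcnk9, Kcnk10, Kcnk12 and Kcnk18, and the accessory genes Kcnip1, Kcnip4, Kcnmb2 and Kcnmb3. Kcnf1 and Kcns1 were above background on 2 WT arrays, and Kcnab3, Kcnmb4 and Kcnrg on 1 WT array, each with 0 KO arrays. A signal below background bounds a level from above and does not show that a transcript is absent. No Kcn gene was above background on all 3 arrays of one genotype and on none of the other. In RNA of a cell fraction, fewer cells of a type and less RNA per cell cannot be told apart.

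No Kcn gene differed between KO and WT after correction. The 52 Kcn genes with a probe well above background on at least 3 arrays were tested with limma within a fit of 21920 genes, and 0 of 52 passed an adjusted p of 0.05, against 0.0319% of all genes. The smallest adjusted p of a Kcn gene was 0.6. At an unadjusted p under 0.05, 2 Kcn genes were higher in KO, where the share over all genes was 0.999%, and 5 were lower, where that share was 6.95%. All 3 KO arrays lay above all 3 WT arrays for 2 of 52 genes (1.83% of all genes) and below them for 5 of 52 (8.67% of all genes). Both counts of lower genes lie near the shares over all genes. The 43 Kcn genes not tested were above background on fewer than 3 arrays. The number lower at an unadjusted p under 0.05 depended on single arrays: it was 2, 0 and 1 without KO replicate 1, 2 or 3, and 3, 2 and 8 without WT replicate 1, 2 or 3. The share of all genes lower by that p was 4.57%, 5.31% and 3.64% without the KO replicates in turn, and 3.47%, 3.22% and 17.5% without the WT replicates. The number past the correction was 1, Kcnj4, when arrays were scaled to their median, and 23 with default array weights, which also called 8520 of all 21920 genes. At an unadjusted p under 0.05 the number higher was 3 without KO replicate 1 (1.45% of all genes) and 1 without KO replicate 2, WT replicate 2 or WT replicate 3 (0.83%, 0.771% and 1.25%).

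The direction of the family as a whole followed the scaling of the arrays. With the 75th percentile, 20 of 52 Kcn genes had a positive difference (KO minus WT) with a median of -0.088, beside 36.3% positive and a median of -0.061 over all genes. When arrays were scaled to their median instead, 43 of 52 were positive with a median of 0.34, beside 81.3% and a median of 0.36 over all genes. With quantile normalization the Kcn median was 0.004, beside -0.015 over all genes. Within slides, the Kcn median was -0.25 for the single KO and WT array of slide 1 and -0.18 for the 2 of each on slide 2, beside -0.021 and -0.13 over all genes, and 17 of 52 Kcn genes had the same sign on both slides, beside 44% of all genes. The intervals show what the arrays could resolve: for 30 of 52 genes the 95% interval of the difference lay within a 2-fold change in either direction, and for the other 22 it reached beyond.

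**Figure D2:**
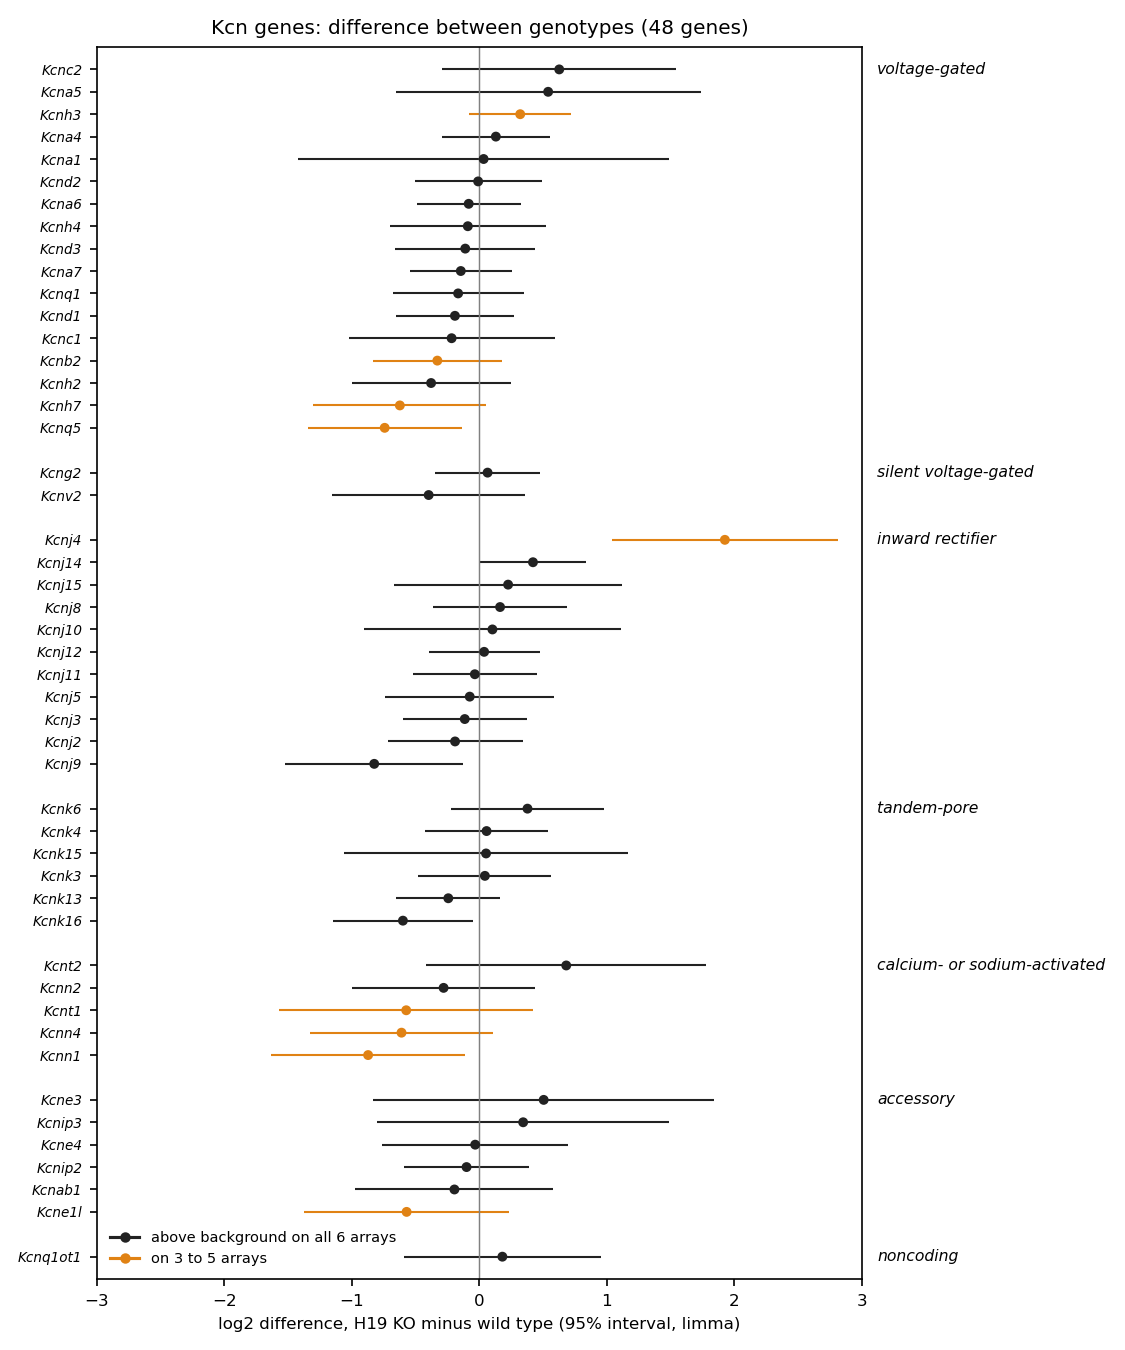
Difference between KO and WT for 48 of the 52 tested Kcn genes (vertical axis, grouped by family), as log2 KO minus WT with the 95% interval of the limma fit (horizontal axis). Black genes were well above background on all 6 arrays and orange genes on 3 to 5. Kcnj4 stands alone at 1.93 and most genes detected on all 6 arrays lie near 0.

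Dim and bright Kcn genes gave different values, as they did over the whole array. The 43 genes above background on all 6 arrays had a median difference of -0.036, with 18 positive, beside -0.037 and 40.2% over all genes detected that way. The 9 tested Kcn genes above background on only 3 to 5 arrays had a median of -0.57, with 2 positive, beside -0.56 and 15.7% over all such genes. Low signals were highest on WT replicate 1: among the 34 Kcn genes above background on no array it held the highest value for 27, and the median of these genes there was -4.73, against -5.91, -6.11 and -6.05 on the KO arrays and -5.53 and -6.30 on the other WT arrays. The lowest signal called well above background was also highest on that array, at -3.48, against -3.93, -4.61 and -4.15 on the KO arrays and -3.93 and -4.41 on the other WT arrays. WT replicate 1 was the highest array for 8 of the 10 Kcn genes with the smallest p among those lower in KO.

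**Figure D3:**
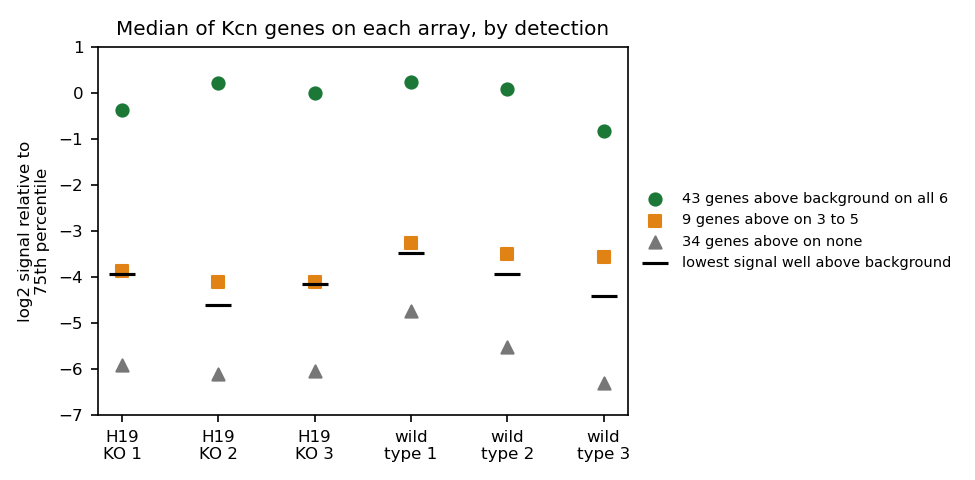
Median signal of Kcn genes (vertical axis, log2 relative to the array's 75th percentile) on each KO and WT array (horizontal axis), for genes above background on all 6 arrays, on 3 to 5 and on none, with the lowest signal called well above background as a bar. The undetected genes reach -4.73 on WT replicate 1 and lie between -6.30 and -5.53 on the other 5 arrays.

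The Kir2 inward rectifiers, the strong rectifiers behind the resting potential, held the 2 Kcn genes that were higher in KO by unadjusted p. Kcnj4 (Kir2.3) read -0.71, -1.65 and -1.07 on the KO arrays and -3.67, -3.13 and -2.40 on the WT arrays. All 3 KO arrays lay above all 3 WT arrays, and the probe was well above background on 3 KO arrays and on 2 WT arrays, not on WT replicate 1. Its mean was -1.14 ± 0.47 in KO and -3.07 ± 0.63 in WT (SD, n = 3 each). The log2 difference was 1.93 (SE 0.37, 95% interval 1.04 to 2.81, 3.80-fold), with an adjusted p of 0.6. Slide 1, where WT replicate 1 was not above background, gave a difference of at least 2.77, taken against the lowest signal above background there. Slide 2 gave 1.41, and the difference was 1.13 with normexp background correction. Scaling by the array median gave 2.35 with an adjusted p of 0.000537, and leaving out WT replicate 3 gave 2.26 with an adjusted p of 0.0512. Default array weights, from a fit that stopped before convergence, gave 2.06 with an adjusted p of 0.000665, and gene-by-gene weights, chosen after that output was seen, gave 2.03 with an adjusted p of 0.0666.

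Kcnj14 (Kir2.4) read 3.08, 2.67 and 2.58 on the KO arrays and 2.34, 2.33 and 2.41 on the WT arrays. The KO arrays again lay above the WT arrays without overlap, with replicate 1 of KO the highest. The difference was 0.42 (SE 0.18, unadjusted p = 0.0481, adjusted p = 0.626), at 0.74 on slide 1 and 0.26 on slide 2. It was 0.27 (unadjusted p = 0.113) without KO replicate 1, and the unadjusted p was 0.0544 with the slide as a block, 0.0936 with the replicate block and 0.0777 with no filter. A second Kcnj14 probe gave 0.16 (SE 0.21), with overlapping arrays, and the mean of both probes gave 0.29 (unadjusted p = 0.136). The other Kir2 members showed no such separation. Kcnj2 (Kir2.1), the main subunit of this current in mouse ventricle, read -1.17, -1.82 and -1.53 on the KO arrays and -1.29, -1.58 and -1.08 on the WT arrays, with a difference of -0.19 (SE 0.22). Kcnj12 (Kir2.2), its partner in mixed channels, read 1.80, 1.27 and 1.71 on the KO arrays and 1.49, 1.52 and 1.66 on the WT arrays, a difference of 0.037 (SE 0.18). For both, the groups overlapped and the 95% interval lay within a 2-fold change, from -0.72 to 0.34 for Kcnj2 and from -0.40 to 0.47 for Kcnj12.

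**Figure D4:**
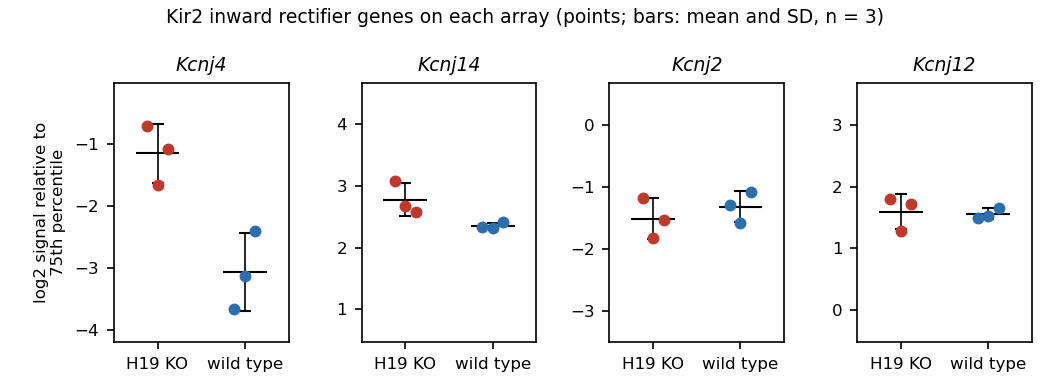
Signal of the Kir2 genes Kcnj4, Kcnj14, Kcnj2 and Kcnj12 (vertical axes, log2 relative to the array's 75th percentile, each spanning the same range) on the 3 KO and the 3 WT arrays (points), with mean and SD. The KO and WT arrays do not overlap for Kcnj4 and Kcnj14, at means of -1.14 against -3.07 and 2.78 against 2.36, while those of Kcnj2 and Kcnj12 do. Neither Kcnj4 nor Kcnj14 passed the correction (limma, adjusted p = 0.6 and 0.626), and the arrays of a second Kcnj14 probe, not drawn, overlap.

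The probes behind these values are shown because the Kir2 genes are related in sequence and Kcnj4, Kcnj2 and Kcnj12 each rest on a single probe. The first 30 of 60 bases are printed, 5′ to 3′, as the array files give them, with the site of the whole probe in mm9 coordinates. The Kcnj4 probe lies on the minus strand of chr15:79314133-79314157, a span of 25 bases although the probe has 60, so the site of its other bases is not given. The Kcnj14 probes lie on the minus strand at chr7:53072247-53072306 and chr7:53073189-53073248. Those of Kcnj2 and Kcnj12 lie on the plus strand at chr11:110936203-110936262 and chr11:60884556-60884615.
Kcnj4: gcatgactgtggtctgtgctcttgattctc
Kcnj14, first probe: ggtgaattttgtttttgtttgaagtgccat
Kcnj14, second probe: attgaacatatgaggtcccagggacaccag
Kcnj2: ctcaaaatcaagcctctaatggtattacac
Kcnj12: tcaggctgcttgtgaccatgttaacgattc
The longest run of bases that probes of different Kir2 genes share, over the whole 60 bases, was 7. Only probes were set against each other, so a match of a probe to the transcript of another Kir2 gene was not tested. The Kcnj4 probe has 36.7% G and C, and the first and second Kcnj14 probes have 38.3% and 55%.

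By the probes used, the subunits of the transient outward current, which sets early repolarisation in mouse ventricle, differed little between the genotypes. Kcnd2 (Kv4.2), a pore-forming subunit of its fast component, read 4.11, 3.50 and 3.54 on the KO arrays and 3.90, 3.60 and 3.68 on the WT arrays. Kcnd3 (Kv4.3) read 3.78, 3.10 and 3.39 on the KO arrays and 3.66, 3.23 and 3.73 on the WT arrays. The groups overlapped for both, and KO replicate 2 held the lowest value of each. Kcnip2 (KChIP2), the calcium-binding subunit that brings Kv4 channels to the surface, read 0.89, 0.26 and 0.45 on the KO arrays and 0.44, 0.79 and 0.68 on the WT arrays. Kcna4 (Kv1.4), the pore of the slow component, read 2.07, 1.95 and 1.70 on the KO arrays and 1.93, 1.86 and 1.54 on the WT arrays. The 4 differences ran from -0.11 for Kcnd3 to 0.13 for Kcna4, with SE between 0.18 and 0.23, and all 4 intervals lay within a 2-fold change. Kcnd1 (Kv4.1) differed by -0.19 (SE 0.20). A second Kcnd3 probe was above background on 0 KO and 2 WT arrays and was not tested. This dim probe read -4.04, -4.647 and -4.285 on the KO arrays and -3.504, -3.583 and -3.926 on the WT arrays. Its difference was -0.653, without overlap.

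Delayed rectifiers, which complete repolarisation, had differences of either sign. Kcnq1, the pore of the slow delayed rectifier, read 3.04, 2.39 and 2.79 on the KO arrays and 2.76, 2.81 and 3.15 on the WT arrays, a difference of -0.17 (SE 0.22). Kcnh2 (ERG), the pore of the rapid one, read 1.08, 0.28 and 0.67 on the KO arrays and 1.44, 0.82 and 0.92 on the WT arrays, a difference of -0.38 (SE 0.26, adjusted p = 0.788). The arrays of both genes overlapped. Kcnv2 (Kv8.2), a silent voltage-gated subunit, differed by -0.40 (SE 0.32), and KO replicate 2 at 0.22 lay apart from the other 5 arrays, which ran from 1.19 to 1.46. Without that array the Kcnv2 difference was -0.029. Kcna7 (Kv1.7) and Kcnc1 (Kv3.1) differed by -0.15 (SE 0.17) and -0.22 (SE 0.34).

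Kcna5 (Kv1.5), the ultrarapid delayed rectifier, read 0.62, 1.49 and 1.90 on the KO arrays and 1.17, 1.44 and -0.22 on the WT arrays. WT replicate 3 was the lowest array and KO replicate 1 the next, and the groups overlapped. The difference was 0.54 (SE 0.50), at -0.55 on slide 1 and 1.08 on slide 2, and a second probe gave 0.33 (SE 0.43) with WT replicate 3 again lowest. The first probe's difference was 0.03 without WT replicate 3, 0.26 without KO replicate 3, 0.90 without KO replicate 1 and 0.86 without WT replicate 2. Kcna1 (Kv1.1) spread most widely among these genes, at -0.38, 0.34 and -0.10 on the KO arrays and 1.17, 0.037 and -1.44 on the WT arrays, with a difference of 0.033 (SE 0.61). Markers of several other cell types were low on KO replicate 1 and WT replicate 3 as well. Their centred means there were -0.37 and -0.84 for fibroblasts, -0.30 and -0.44 for pericytes, -0.44 and -0.40 for endothelial cells, and -0.41 and -0.88 for smooth muscle. On KO replicates 2 and 3 and WT replicates 1 and 2, fibroblast means were 1.20, 0.06, 0.31 and -0.34. In that order they were 0.32, 0.17, 0.12 and 0.13 for pericytes and 0.33, 0.10, 0.34 and 0.08 for endothelial cells. Those of smooth muscle were 0.62, -0.59, 0.62 and 0.64, with KO replicate 3, the highest array for Kcna5, below KO replicate 1. Some other marker sets were not low on both KO replicate 1 and WT replicate 3. Macrophage markers were at -0.58 and 0.34, atrial markers at -0.83 and 0.45, and conduction system markers at 0.15 and -0.19. Erythroid markers spread most, at -2.25 and -1.58 there, against 3.04 on KO replicate 2 and 2.41 on WT replicate 1. The part of other cells in these values was not tested.

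**Figure D5:**
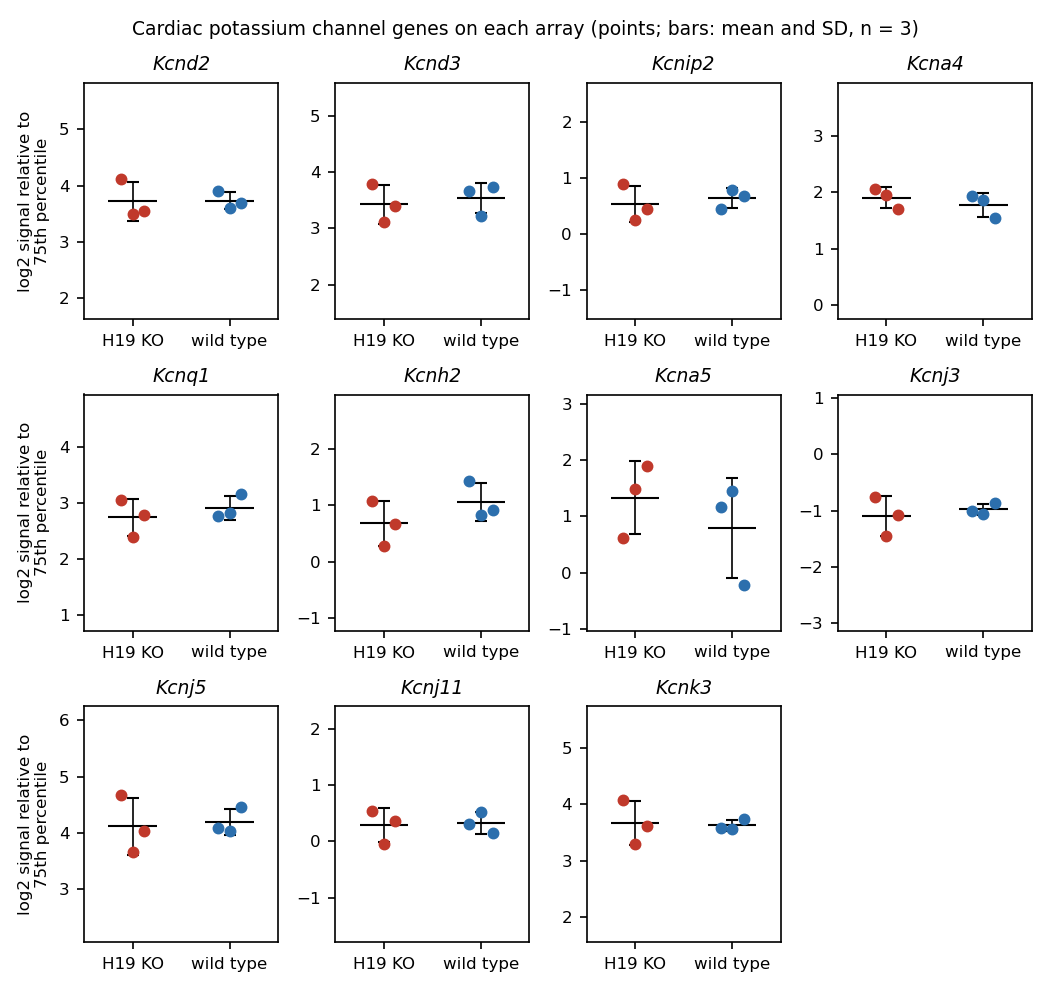
Signal of 11 cardiac potassium channel genes (vertical axes, log2 relative to the array's 75th percentile, each spanning the same range) on the 3 KO and the 3 WT arrays (points), with mean and SD. The groups overlap for all 11 genes, and Kcna5 has the widest spread, with WT replicate 3 at -0.22.

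Channels that couple to receptors or to metabolism had small differences. Kcnj3 and Kcnj5 (GIRK1 and GIRK4) form the acetylcholine-activated channel, which is best known from atrium and pacemaker tissue. Kcnj5 read 4.67, 3.65 and 4.03 on the KO arrays and 4.08, 4.04 and 4.45 on the WT arrays, a difference of -0.076 (SE 0.28), and Kcnj3 read -0.75, -1.45 and -1.08 on the KO arrays and -1.0, -1.07 and -0.87 on the WT arrays, a difference of -0.12 (SE 0.21). The groups overlapped for both genes. The atrial markers Myl7, Myl4 and Sln had differences of -3.51, -2.79 and -4.84 on the same arrays, with no overlap and adjusted p-values of 0.488, 0.581 and 0.559, while Nppa differed by 0.022. Kcnj8 and Kcnj11 (Kir6.1 and Kir6.2), the pores of ATP-sensitive channels, differed by 0.16 (SE 0.22) and -0.036 (SE 0.20). The 4 intervals lay within a 2-fold change. The sulfonylurea receptor genes Abcc8 and Abcc9, which complete the ATP-sensitive channel, differed by -0.006 (SE 0.19) and -0.001 (SE 0.21).

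Among tandem-pore channels, Kcnk3 (TASK-1), an acid-sensitive leak channel, read 4.08, 3.30 and 3.62 on the KO arrays and 3.57, 3.57 and 3.73 on the WT arrays, with a difference of 0.043 (SE 0.22). Kcnk6 (TWIK-2) read -0.052, 0.66 and 0.63 on the KO arrays and 0.24, 0.15 and -0.28 on the WT arrays. Its difference of 0.38 (SE 0.25, adjusted p = 0.775) split into -0.30 for slide 1 and 0.71 for slide 2, and the arrays overlapped. Kcnk13 (THIK-1), Kcnk4 (TRAAK) and Kcnk15 had differences of -0.24, 0.056 and 0.052, with SE of 0.17, 0.20 and 0.47. Of the small-conductance calcium-activated channels, Kcnn2 (SK2) read 1.90, 0.87 and 1.44 on the KO arrays and 1.54, 1.43 and 2.08 on the WT arrays, a difference of -0.28 (SE 0.30). Kcnn4, the intermediate-conductance member, differed by -0.61 (SE 0.30, adjusted p = 0.65) and was above background on 5 arrays, with WT replicate 1 the highest. The sodium-activated Kcnt2 differed by 0.68 (SE 0.46), at -0.45 on slide 1 and 1.25 on slide 2, and Kcnt1 by -0.57 (SE 0.42).

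Accessory subunits, which tune gating and trafficking of the pores, had 6 of 16 genes tested, 2 of them with a positive difference. Kcne3 and Kcne4, single-span subunits of the Kcne family, differed by 0.50 (SE 0.56) and -0.033 (SE 0.31). The Kcne3 difference was 0.042 without KO replicate 2, 0.028 without WT replicate 3 and 0.97 without KO replicate 1. Kcne3 was lowest on WT replicate 3 and KO replicate 1, at -4.04 and -3.51, and highest on KO replicate 2, at -1.66, which is also the order of the fibroblast and the pericyte markers at these ends. Other marker sets had another order. Endothelial markers were lowest on KO replicate 1 (-0.44) and highest on WT replicate 1 (0.34). Smooth muscle markers were highest on WT replicate 2 (0.64), and macrophage markers were at 0.34 on WT replicate 3. Kcnip3, a calcium-binding protein of the Kcnip family, differed by 0.34 (SE 0.48) and had the same lowest and highest arrays as Kcne3. Kcnab1 (Kvβ1) differed by -0.20 (SE 0.33). On slides 1 and 2 the Kcne3 difference was -0.96 and 1.24, and that of Kcnip3 was -0.86 and 0.94. The part of other cells was not tested here either.

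Kcnq1ot1 is transcribed antisense within the imprinted domain around Kcnq1, a neighbour of the H19 domain. The probes of Kcnq1ot1 and Kcnq1 lie 679 and 851 kb from that of H19 on chromosome 7 (mm9). Kcnq1ot1 read -1.51, -1.31 and -1.47 on the KO arrays and -1.23, -1.22 and -2.38 on the WT arrays. The 3 KO arrays lay within the range of the WT arrays, and the difference was 0.18 (SE 0.33, 95% interval -0.59 to 0.95). A second Kcnq1ot1 probe was above background on 0 KO and 0 WT arrays and was not tested. Its difference was -0.534, of the other sign, with overlapping arrays.

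The 5 genes with the smallest p among those lower in KO did not pass the correction, with adjusted p-values of 0.62 to 0.626, and 4 of them are given here. Kcnq5, a subunit of the neuronal M current, read -4.58, -4.24 and -3.92 on the KO arrays and -3.10, -3.83 and -3.57 on the WT arrays, a difference of -0.74 (SE 0.26) without overlap, and was above background on 1 KO array and 2 WT arrays. Kcnj9 (GIRK3) read -3.14, -3.34 and -3.10 on the KO arrays and -1.81, -2.32 and -2.98 on the WT arrays, a difference of -0.83 (SE 0.29) without overlap.

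Kcnn1 (SK1) read -3.88, -4.10 and -4.22 on the KO arrays and -2.73, -2.92 and -3.93 on the WT arrays, overlapping through WT replicate 3, and differed by -0.87 (SE 0.32). It was above background on 1 KO array and 3 WT arrays. Kcnk16 (TALK-1), known from pancreatic islets, read -3.35, -3.43 and -3.66 on the KO arrays and -2.58, -2.71 and -3.34 on the WT arrays, a difference of -0.60 (SE 0.23) without overlap. In all 4 genes WT replicate 1 was the highest array, as it was for 27 of the 34 Kcn genes above background on no array. With each array left out in turn, the differences ran from -0.91 to -0.541 for Kcnq5 and from -1.129 to -0.545 for Kcnj9. They ran from -1.239 to -0.642 for Kcnn1 and from -0.83 to -0.452 for Kcnk16. The part of WT replicate 1 in the differences was not tested beyond leaving it out. Of the genes with a positive difference, Kcnh3, an EAG-family channel, and Kcnc2 (Kv3.2) followed Kcnj4 and Kcnj14 by p, at 0.32 (SE 0.17) and 0.63 (SE 0.39), with overlapping arrays.

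A further 8 tested members had differences between -0.62 and 0.23. They were Kcnh7 at -0.62, Kcne1l at -0.57, Kcnb2 at -0.33, Kcnh4 at -0.091, Kcna6 at -0.084, Kcng2 at 0.064, Kcnj10 at 0.10 and Kcnj15 at 0.23, and the arrays of all 8 overlapped between the genotypes. SE among them ran from 0.17 for Kcna6 and Kcng2 to 0.43 for Kcnj10.

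Where a gene had several tested probes, these did not always give the same sign. This held for 10 tested Kcn genes, of which 6 had the same sign in all tested probes. The other 4 were Kcna7 with -0.15 and 0.063, Kcnj11 with -0.036 and 0.076, Kcnj3 with -0.12 and 0.074, and Kcnk4 with 0.056 and -0.70. In each pair the first value is that of the probe used.

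Genes that work with potassium channels without carrying the Kcn prefix were described from a list of 27, of which 21 were tested. None passed the correction in limma, and 1 of 21 was lower in KO at an unadjusted p under 0.05, beside 6.95% of all genes. A positive difference was found for 4 of 21, beside 36.3% of all genes, and the median was -0.03, beside -0.061. Akap9, an anchoring scaffold, and Nedd4l, a ubiquitin ligase, differed by -0.018 and -0.047. Irx5, a repressor of Kcnd2 across the ventricular wall, differed by -0.21 (SE 0.61), and Hcn2, a pacemaker channel subunit, by -0.03 (SE 0.15). Fgf12, a modulator of voltage-gated channels, was that 1 gene, and it entered the test through the WT arrays alone. It read -4.98, -4.84 and -5.29 on the KO arrays and -2.70, -2.55 and -4.34 on the WT arrays, was well above background on 0 KO and 3 WT arrays, and was at least 2.05-fold higher in WT by the same bound as for H19 (adjusted p = 0.62). The value on WT replicate 3 lay near the lowest signal above background there, -4.41. In limma, Fgf12 passed the correction with median scaling (-1.42, adjusted p = 0.0417) and without WT replicate 3 (-2.41, adjusted p = 0.0422). Default array weights, from the fit that stopped before convergence, gave -2.67 (adjusted p = 0.000789). In the other 19 of 22 alternatives that tested Fgf12 it did not pass.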

How the data were processed

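RNA of cardiomyocyte fractions from 3 H19 KO and 3 WT samples, all taken 6 weeks after TAC, was hybridised to 1-colour arrays with 59305 non-control spots. The deposited scanner files hold, per the file headers, a background-subtracted and detrended intensity for each spot, not normalized between arrays, with the mean and background intensity and detection flags. They were made with Agilent Feature Extraction 10.7.3.1, per the submitters' processing notes, and give mm9 coordinates, per the file headers. A value table of the authors, holding a quantile-normalized intensity per spot, served as an alternative on the log2 scale. This alternative and the quantile normalization done here are therefore not independent of each other.

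Here each processed intensity was put on the log2 scale, and the log2 of the array's 75th percentile over non-control spots was subtracted. Control spots and outlier spots were left out, spots of a probe averaged, and probes kept if 3 or more of 6 arrays had them well above background, with 1 probe per gene name by the highest mean. KO minus WT was tested with limma 3.58.1 (lmFit, eBayes, R 4.3.3), two-sided, with Benjamini-Hochberg adjustment over 21920 genes. Adjusted p-values come from this model except where an alternative is named beside them. The 95 names were checked against RefSeq (GRCm38.p6, names only), 89 by accession and 6 by symbol. The procedure was tested on simulated data. No more than 6 arrays limit the precision.

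The members, lists, tests and alternatives were chosen with earlier results of these data known. Genes named are those past the threshold, the 5 with the smallest p in each direction, a panel of 38 with roles in heart or vessel wall, and partner genes by p, plus Abcc8, Abcc9 and a few partner genes. Outside this rule, the remaining Kcn genes were added after their values were seen. Results of a few genes are not reported here, though these genes count in every fit and total. Alternatives covered background correction, normalization, filters, probe choice, names, replicate or slide as a block, the variance prior, array weights and leaving out each array. Deviations of same-numbered KO and WT arrays from their group means correlated at -0.217, -0.052 and 0.036 for replicates 1 to 3. These values cannot exclude a pairing of samples, and the limma model above used none. Added after seeing the data were the percentile over probes, the percentile over unflagged spots and gene-by-gene array weights.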

Additional observations from a re-analysis of the deposited data

How the results depend on the processing

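The absence of a Kcn gene past the correction held under 21 of 23 alternatives, leaving out each array included. The exceptions were scaling to the median of all probes, with 1 gene, and array weights, with 23. The default array weights were the weighting intended at the outset. Their fit stopped before reaching convergence and gave weights of 0.324, 0.332 and 5.763 to the KO arrays and 0.372, 15.657 and 0.276 to the WT arrays, so that 1 array of each genotype carried the comparison, and 8520 of all genes passed. Gene-by-gene weights, chosen after that output was seen, gave 0.579, 0.615 and 2.721 in KO and 0.696, 3.061 and 0.484 in WT, with 0 Kcn genes past the correction, 4 Kcn genes higher (2.69% of all genes) and 10 lower (19% of all genes) at an unadjusted p under 0.05, and 10 of all genes past it. The 75th percentile was first taken over unflagged spots, then over all non-control spots as the design had set: all genes past the correction numbered 7 that way and 8 over unflagged spots or over probes, and 0 Kcn genes passed in each.

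At an unadjusted p under 0.05, the 2 Kcn genes higher in KO became 5 with quantile normalization or the authors' values (2.23% and 2.21% of all genes higher there), 9 with median scaling (6.94%), 4 on slide 2 alone (2.45%), 8 with default weights (13%), and 1 with the filter on all 6 arrays, no filter, the mean of a gene's probes or the slide as a block (0.628% to 1.17%). The 5 lower became 3 with normexp, the filter on all 6 arrays, slide 2 alone or the trend and robust prior (5.26%, 4.4%, 2.94% and 4.59% of all genes lower there), 2 with quantile normalization or the authors' values (3.59% and 3.65%), 1 with median scaling (1.19%), 14 of 95 with no filter (7.94%) and 19 with default weights (34.9%). Leaving out arrays gave 1 to 3 higher and 0 to 8 lower. The median of -0.088 became 0.004 with quantile normalization, 0.337 with median scaling, -0.197 with no filter and -0.182 on slide 2 alone, and ran from -0.193 to -0.032 with an array left out. Positive Kcn genes numbered 43 with median scaling. All genes past the correction were 3 with quantile normalization or the authors' values, 118 with median scaling, 1 with no filter, the slide as a block or slide 2 alone, and 1 to 10 with an array left out. With the replicate block, 1 of all genes and 0 Kcn genes passed, and 1 Kcn gene was higher at an unadjusted p under 0.05.

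Of the 33 tested Kcn genes that the naming rule gave and that are reported here, 21 changed sign under at least 1 of the 23 alternatives, none of them past the correction in the fit that the report uses. Median scaling raised the difference of every gene alike, by 0.425, and this shift turned 15; under the other alternatives 17 changed sign. The values with the shift were Kcnd2 0.414, Kcnd3 0.313, Kcnip2 0.323, Kcna7 0.279, Kcnc1 0.207, Kcnv2 0.027, Kcnq1 0.258, Kcne4 0.392, Kcnh2 0.046, Kcnj2 0.234, Kcnj3 0.309, Kcnj5 0.349, Kcnj11 0.389, Kcnn2 0.144 and Kcnab1 0.228. Default weights turned Kcnd3 (0.151), Kcna4 (-0.124), Kcna1 (-0.128), Kcne4 (0.163), Kcnj2 (0.038) and Kcnq1ot1 (-0.227), and gene-by-gene weights Kcnd3 (0.049), Kcna4 (-0.041), Kcna1 (-0.126), Kcne4 (0.081) and Kcnq1ot1 (-0.098). Slide 2 alone turned Kcne4 (0.408), Kcnj12 (-0.098), Kcnk3 (-0.189) and Kcnab1 (0.269). The authors' values gave Kcne4 0.168 and Kcnab1 0.008, quantile normalization gave them 0.179 and 0.016, normexp gave Kcnd2 0.019, the percentile over probes gave it 0.005, and the mean of probes gave Kcnj11 0.02. With an array left out, the range was -0.65 to 0.658 for Kcna1, -0.5 to 0.1 for Kcnab1, -0.592 to 0.054 for Kcnc1, -0.209 to 0.1 for Kcnd2, -0.29 to 0.05 for Kcnd3, -0.318 to 0.228 for Kcne4 and -0.279 to 0.036 for Kcnip2. It was -0.167 to 0.129 for Kcnj11, -0.066 to 0.197 for Kcnj12, -0.286 to 0.062 for Kcnj3, -0.351 to 0.155 for Kcnj5, -0.034 to 0.296 for Kcnj8, -0.163 to 0.227 for Kcnk3, -0.318 to 0.011 for Kcnq1 and -0.207 to 0.377 for Kcnq1ot1. Without a change of sign, leaving out an array moved the difference by over 1.5 times for Kcna4 (0.01 to 0.233), Kcna5 (0.03 to 0.897), Kcna7 (-0.287 to -0.072), Kcnc2 (0.339 to 0.981), Kcne3 (0.028 to 0.969), Kcnh2 (-0.581 to -0.181), Kcnj14 (0.27 to 0.518), Kcnj2 (-0.36 to -0.035), Kcnj9 (-1.129 to -0.545), Kcnk6 (0.218 to 0.609), Kcnn2 (-0.528 to -0.013), Kcnn4 (-0.906 to -0.31) and Kcnv2 (-0.651 to -0.029). Kcnj4 stayed positive, from 1.13 to 2.35, in the 22 alternatives that tested it. The filter on all 6 arrays left it out. The causes were not tested. The number of Kcn genes detected was 52 on at least 3 arrays and 61 on at least 1, against 43 on all 6.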
